A study of Mus musculus with 34 samples.

Results

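The dual-specificity phosphatases (DUSPs) that act on mitogen-activated protein (MAP) kinases were followed in the dorsal hippocampus 1 h after learning. The 10 genes were chosen by name, Dusp1, Dusp2, Dusp4, Dusp5, Dusp6, Dusp7, Dusp8, Dusp10, Dusp14 and Dusp16, out of 54532 genes in the bulk RNA-seq table. All 10 were found in the table and all 10 passed the filter on low counts, which left 22018 genes to test. The tissue came from adult male C57BL/6J mice, 2 to 3 months old, and no transgene or drug is named for either group. The 4 homecage mice were handled and left undisturbed in their cages. The 4 mice of the other group were trained in spatial object recognition (SOR), a hippocampus-dependent task in which a mouse explores objects in an open field over repeated sessions, and were euthanized 1 h after training. Each mouse gave 1 library. A mouse that explored an open field without learning about objects is not among the groups compared, so the values describe the whole experience of training against the homecage.

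MAP kinases are switched on when a threonine and a tyrosine in their activation loop are both phosphorylated, and the DUSPs switch them off by removing both phosphates. Learning activates the extracellular signal-regulated kinases (ERK) in hippocampal neurons, and ERK drives transcription of immediate early genes through factors at their promoters. Several DUSP genes are themselves ERK targets, which makes them negative feedback regulators. The family is divided by location and preferred kinase. Dusp5, Dusp6 and Dusp7 prefer ERK, with Dusp5 in the nucleus and Dusp6 and Dusp7 in the cytoplasm. Dusp1, Dusp2 and Dusp4 are inducible nuclear enzymes with a broader choice of kinases. Dusp8, Dusp10 and Dusp16 prefer the stress-activated kinases JNK and p38. Dusp14 is a small atypical enzyme that lacks the kinase-docking domain of the others.

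Promoter sequences were read for the members from RefSeq (GRCm38.p6), where 9 of the 10 matched and Dusp4 did not. The stretches shown run from 200 to 51 bases before the RefSeq start site, 150 bases each. Those of Dusp5 and Dusp6 were selected for the differences in expression described below. Those of Dusp1 and Dusp8 were selected because they hold the cAMP response element (CRE) that is known from many activity-regulated promoters. Capitals mark matches to the CArG box, to the full CRE (TGACGTCA) or to its core (TGACG), on either strand. The Dusp5 stretch lies at chr19:53528945-53529094 on the + strand, that of Dusp6 at chr10:99263031-99263180 on the + strand, that of Dusp1 at chr17:26508523-26508672 on the - strand and that of Dusp8 at chr7:142095335-142095484 on the - strand. None of the 4 overlaps an exon of its gene in GENCODE M21, and those of Dusp1 and Dusp8 lie in the intron of 1 longer GENCODE transcript each.
Dusp5: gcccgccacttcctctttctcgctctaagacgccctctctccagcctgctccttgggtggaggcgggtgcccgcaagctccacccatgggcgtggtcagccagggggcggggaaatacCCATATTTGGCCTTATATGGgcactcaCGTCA
Dusp6: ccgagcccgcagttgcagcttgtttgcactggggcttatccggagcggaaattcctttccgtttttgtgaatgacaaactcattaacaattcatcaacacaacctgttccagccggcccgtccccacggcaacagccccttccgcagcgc
Dusp1: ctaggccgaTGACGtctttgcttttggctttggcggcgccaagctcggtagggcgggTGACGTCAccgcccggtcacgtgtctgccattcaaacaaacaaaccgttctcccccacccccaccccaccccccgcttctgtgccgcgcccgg
Dusp8: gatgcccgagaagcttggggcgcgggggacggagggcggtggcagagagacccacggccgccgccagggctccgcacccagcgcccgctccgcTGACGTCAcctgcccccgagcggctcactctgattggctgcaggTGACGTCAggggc

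The Dusp5 promoter held 2 CArG boxes placed end to end, CCATATTTGG at 82 to 73 bases and CCTTATATGG at 72 to 63 bases before the start, followed by a CRE core at 55 to 51 bases. The CArG box is the site bound by serum response factor, beside which the ternary complex factors that ERK phosphorylates can bind. In the 250 bases before the start, 1.47% of 32851 RefSeq promoter windows held a CArG box, and 6 windows (0.0183%) held 2 or more. Dusp5 was the only member among the 9 with a match. The full CRE was found in 1.55% of windows, and 0.0304% held 2 or more. Dusp1 had it once, at 143 to 136 bases, and Dusp8 had it at 107 to 100 and at 63 to 56 bases. The CRE core, which also lies inside every full CRE, was in 17.8% of windows and in those of Dusp1, Dusp5, Dusp8 and Dusp16. The EGR motif (GCGNGGGCG) was in 4.7% of windows and in those of Dusp2 and Dusp16. The ETS motif, searched in the single form CCGGAA, was in 12% of windows and in that of Dusp14. Other forms of the ETS site were not searched. The bases from 200 to 51 before the Dusp14 start overlap annotated exons of that gene. The AP-1 motif (TGANTCA) was in 6.75% of windows and in none of the 9 members. Dusp6, Dusp7 and Dusp10 had no match to any of these letters in the 250 bases. The windows of the 9 members held from 56.4% GC (Dusp6) to 77.2% GC (Dusp7), against a median of 52.4% over all windows. The shares of all windows were not matched for GC. These matches describe letters in a window and were not tested for binding.

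Following learning, 2 of the 10 phosphatases were called higher in SOR than in homecage, Dusp5 and Dusp6, and both belong to the ERK-preferring group. To be called, a gene had to differ by more than 1.4-fold with an adjusted p below 0.05, and 0.15% of all genes tested were called higher (33 genes). No member was called lower, a direction in which 0.0227% of genes were called. By adjusted p alone the same 2 members passed, beside 0.273% of genes that passed higher and 0.0363% that passed lower. At an unadjusted p under 0.05 in the edgeR quasi-likelihood test, 5 members passed, with Dusp1 and Dusp4 in the same direction and Dusp16 in the opposite one, beside 10.1% of all genes. DESeq2 passed 322 of the 22018 genes higher and 120 lower, and also passed no member as lower. In addition to Dusp5 and Dusp6, Dusp1 and Dusp4 had all 4 SOR libraries above all 4 homecage libraries, so that 4 of 10 members were separated in this direction, against 2.98% of all genes. No member had all SOR libraries below all homecage libraries, against 3.96% of all genes. Log2 fold changes were above 0 in 7 of 10 members, against 43.8% of all genes. The libraries held between 51406011 and 81525977 estimated counts, and values are given as CPM, counts scaled to a common library total. SOR 1 stood apart from its group, with a chi-square per degree of freedom of 49.0 to 54.1 against the other SOR libraries, which differed among themselves by 11.9 to 17.8, and results without it are given with the cell markers. Homecage 1 lay apart from homecage 3 by 50.0 and from homecage 2 by 33.7, but from homecage 4 by 18.7. Without homecage 1, Dusp5 (log2 fold change 0.88, adjusted p = 0.00558) and Dusp6 (log2 fold change 0.57, adjusted p = 0.00755) were still called. In tissue RNA, more RNA per cell and more cells that express a gene cannot be told apart.

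**Figure D1:**
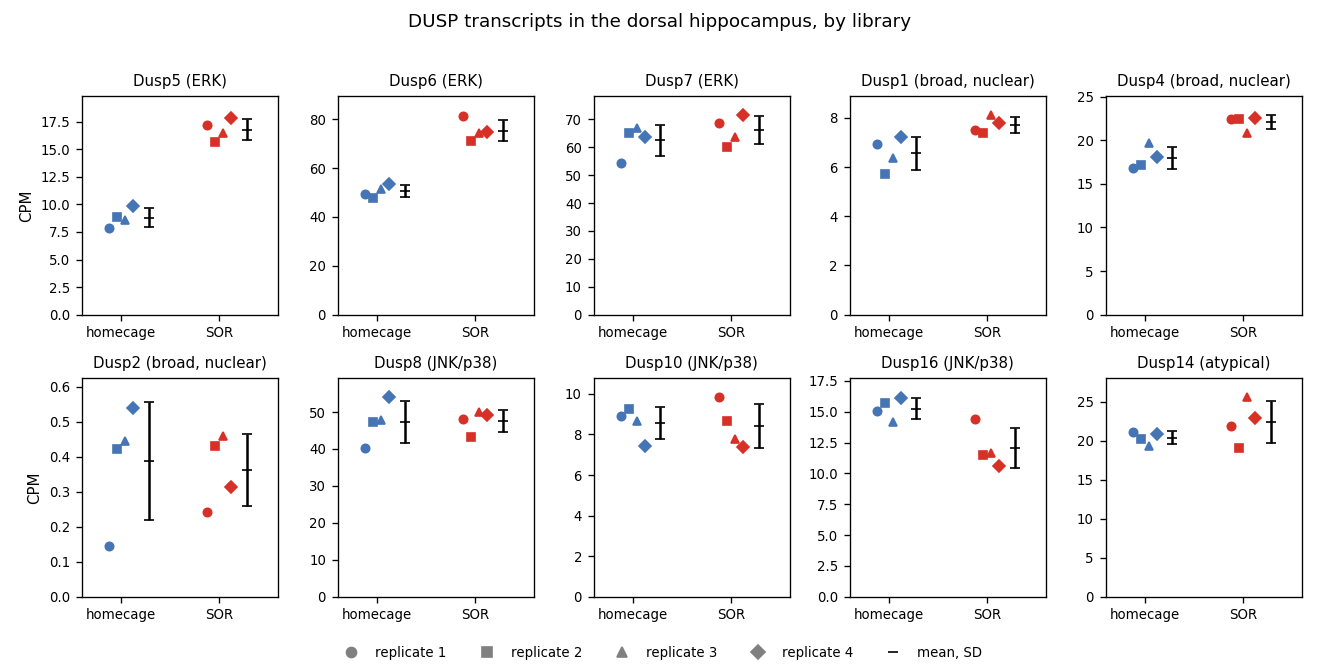
CPM of each of the 10 DUSP genes (vertical axes, each starting at 0) in the 4 homecage (blue) and 4 SOR (red) libraries, with the group mean and SD in black. Symbols mark the replicate number within a group. All SOR points lie above all homecage points for Dusp5, Dusp6, Dusp1 and Dusp4, and the groups overlap for the other 6 genes.

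Among the ERK phosphatases, Dusp5 (ENSMUSG00000034765, chr19:53529109-53542431, + strand), the nuclear member, had the largest log2 fold change of the 10. It was measured at 7.87, 8.84, 8.60 and 9.88 CPM in the homecage libraries and at 17.2, 15.7, 16.5 and 17.9 CPM in the SOR libraries. The groups were far apart, and the lowest SOR library exceeded the highest homecage library. The mean went from 8.80 ± 0.832 to 16.8 ± 0.926 CPM (SD, n = 4 each), a fold change of 1.91 (95% interval 1.67 to 2.17). The log2 fold change was 0.93 (SE 0.0851, adjusted p = 0.00105 in the edgeR quasi-likelihood test with Benjamini-Hochberg adjustment), and Dusp5 ranked 9 of 22018 by p. An antisense gene in GENCODE, AC137853.2, shares 547 bases of exon with Dusp5. The deposited counts hold no values for AC137853.2. As the use of strand in the counting is not given in the sources used here, whether its reads were counted to Dusp5 cannot be told.

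Dusp6 (ENSMUSG00000019960, chr10:99263231-99267489, + strand), a cytoplasmic ERK phosphatase, was measured at 49.2, 47.9, 51.3 and 53.6 CPM in the homecage libraries. In the SOR libraries it was measured at 81.2, 71.0, 74.3 and 74.6 CPM. Every SOR library was above the homecage libraries, with SOR 1 the highest. The mean went from 50.5 ± 2.51 to 75.3 ± 4.25 CPM (SD, n = 4 each), a fold change of 1.49 (95% interval 1.38 to 1.62). The log2 fold change was 0.58 (SE 0.0526, adjusted p = 0.00105 in the edgeR quasi-likelihood test with Benjamini-Hochberg adjustment), and Dusp6 ranked 7 by p. The 95% interval of Dusp6 lay below that of Dusp5.

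Dusp7 (ENSMUSG00000053716, chr9:106368632-106375724, + strand), the other cytoplasmic ERK phosphatase among the members, did not pass the test. Its values were 54.2, 65.1, 66.9 and 63.6 CPM in homecage and 68.7, 60.2, 63.7 and 71.6 CPM in SOR. The groups overlapped, with the lowest value in homecage 1. Its log2 fold change was 0.08 (95% interval −0.08 to 0.24, adjusted p = 0.77), so the interval stopped short of the change of Dusp6 and Dusp5.

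**Figure D2:**
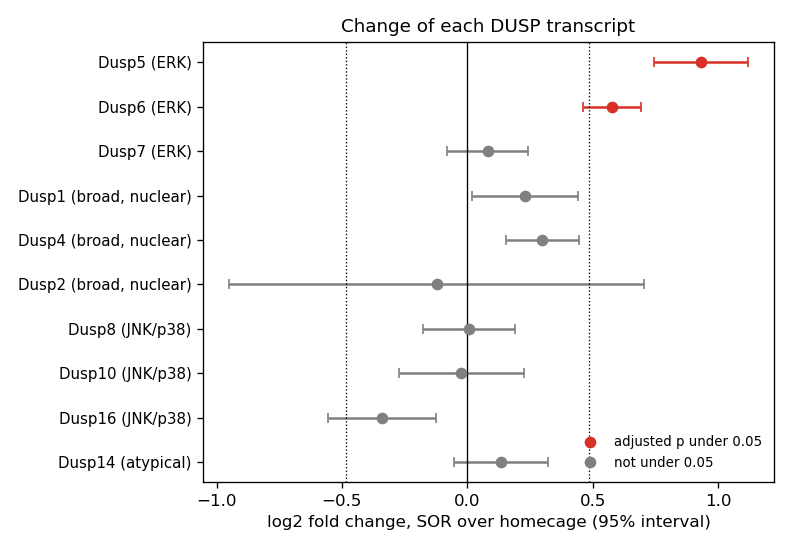
Log2 fold change of SOR over homecage (horizontal axis) for each DUSP gene, with its 95% interval from the edgeR quasi-likelihood fit on 4 libraries a group. Red marks an adjusted p under 0.05, and dotted lines mark a fold change of 1.4 in either direction. Dusp5 (0.93) and Dusp6 (0.58) lie beyond the line, and Dusp2 has by far the widest interval, −0.95 to 0.71.

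The inducible nuclear phosphatases with broad substrates gave no call. Dusp4 (ENSMUSG00000031530, chr8:34807297-34819894, + strand), which acts on ERK and JNK in the nucleus, was at 16.8, 17.2, 19.7 and 18.1 CPM in homecage and at 22.4, 22.5, 20.9 and 22.6 CPM in SOR. The groups did not overlap, and SOR 3 came closest to the homecage values. This gave a log2 fold change of 0.30 (SE 0.0664, 95% interval 0.15 to 0.45), with an adjusted p of 0.125 by the edgeR quasi-likelihood test. With DESeq2 on the same counts, the adjusted p of Dusp4 was 0.000938 at a log2 fold change of 0.32, below the fold change of a call. Of 12 other settings, DESeq2 was the only one in which Dusp4 passed. Over all genes, DESeq2 passed 322 higher and 120 lower, against 60 and 8 in the main fit.

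Dusp1 (ENSMUSG00000024190, chr17:26505590-26562128, - strand), the founding member of the family and an immediate early gene in many cell types, was measured at 6.94, 5.71, 6.39 and 7.20 CPM in homecage. In SOR it was measured at 7.50, 7.40, 8.11 and 7.80 CPM. The groups did not overlap, but homecage 4 lay close to SOR 2. Dusp1 had a log2 fold change of 0.23 (SE 0.0957, 95% interval 0.02 to 0.44, adjusted p = 0.455). For Dusp1 and Dusp4 alike, a two-sided exact permutation test of the log2 CPM values gave p = 0.0286, which is the smallest p that 4 against 4 libraries allow. GENCODE joins a long upstream transcript to Dusp1 whose first exon shares 11 bases with Ergic1, a gene on the opposite strand with a log2 fold change of 0.03.

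Dusp2 (ENSMUSG00000027368, chr2:127336159-127338376, + strand), known mainly from activated immune cells, was the least abundant member. Its values were 0.145, 0.421, 0.446 and 0.540 CPM in homecage and 0.242, 0.432, 0.461 and 0.314 CPM in SOR. These correspond to between 7.76 and 42.7 estimated counts a library, and the groups overlapped throughout. The fit gave a log2 fold change of −0.12 with a 95% interval from −0.95 to 0.71 (adjusted p = 0.949), an interval that takes in changes of the size of Dusp6 in either direction. The homecage values of Dusp2 had a coefficient of variation of 43.7%, and its SE was 0.374, against 0.289 without homecage 1.

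None of the JNK- and p38-preferring phosphatases passed the test. Dusp16 (ENSMUSG00000030203, chr6:134715468-134792625, - strand), a JNK phosphatase that shuttles between cytoplasm and nucleus, was at 15.1, 15.7, 14.1 and 16.1 CPM in homecage and at 14.4, 11.5, 11.7 and 10.6 CPM in SOR. SOR 2, SOR 3 and SOR 4 lay below all homecage libraries, while SOR 1 lay among them. The fit gave a log2 fold change of −0.34 (SE 0.0975, 95% interval −0.56 to −0.12), with an unadjusted p of 0.00543 and an adjusted p of 0.25 by the edgeR quasi-likelihood test. The exact two-sided permutation test gave p = 0.0571. Without SOR 1 the log2 fold change was −0.44 (adjusted p = 0.0684), and over the 8 fits that left out a library the adjusted p was between 0.0684 and 0.515. Over the 12 other settings it was between 0.0527, with 2 RUVs factors, and 0.378, and Dusp16 passed in none of them.

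Dusp8 (ENSMUSG00000037887, chr7:142079490-142095843, - strand), a phosphatase expressed mainly in brain and heart, was at 40.2, 47.3, 47.8 and 54.1 CPM in homecage and at 48.2, 43.1, 49.9 and 49.2 CPM in SOR. The SOR values lay within the homecage range. With a log2 fold change of 0.01, Dusp8 did not pass the test (95% interval −0.18 to 0.19, adjusted p = 0.989). Its exons share 66 bases with Gm32786 on the opposite strand, which had at most 16.7 counts in a library.

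Dusp10 (ENSMUSG00000039384, chr1:184013302-184075636, + strand), which acts on p38 and JNK, was at 8.92, 9.26, 8.64 and 7.42 CPM in homecage and at 9.84, 8.66, 7.77 and 7.36 CPM in SOR, and the SOR libraries enclosed the homecage range. Its log2 fold change was −0.02 (95% interval −0.27 to 0.23, adjusted p = 0.968). Dusp14 (ENSMUSG00000018648, chr11:84048041-84069261, - strand), the atypical member, was at 21.1, 20.2, 19.4 and 20.9 CPM in homecage and at 21.9, 19.1, 25.6 and 22.9 CPM in SOR. The groups overlapped, and the spread was wider in SOR, with an SD of 2.68 CPM against 0.797 CPM. For Dusp14 the log2 fold change was 0.13 (95% interval −0.05 to 0.32, adjusted p = 0.644).

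By preferred kinase, the median log2 fold change was 0.58 for the 3 ERK phosphatases, 0.23 for the 3 broad nuclear phosphatases and −0.02 for the 3 JNK and p38 phosphatases. It was 0.11 over all 10 members and −0.02 over all genes tested. Each group holds few genes that were chosen by name, so these medians are descriptions and carry no test. DUSP genes outside the 10 were not placed in these groups. Within the ERK group the values ran from 0.08 to 0.93, and within the JNK and p38 group from −0.34 to 0.01.

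To compare levels between genes, CPM were divided by the length of all exons of a gene in kilobases. In homecage, the ERK phosphatases Dusp7 (18.6 ± 1.68) and Dusp6 (16.1 ± 0.801) had the highest levels, in CPM per kilobase (SD, n = 4). Dusp14 (10.5 ± 0.410), Dusp8 (9.72 ± 1.17) and Dusp4 (6.55 ± 0.469) followed. The lower part of the order held Dusp5 (3.56 ± 0.336), Dusp10 (2.81 ± 0.264), Dusp1 (1.98 ± 0.199), Dusp16 (1.96 ± 0.110) and Dusp2 (0.194 ± 0.0847). Among neighbours in this order, the ranges over libraries overlapped for Dusp7 and Dusp6, for Dusp14 and Dusp8, and for Dusp1 and Dusp16, and did not overlap for the other pairs.

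In SOR, the order at the top was exchanged. Dusp6 was first at 24.0 ± 1.36 CPM per kilobase and Dusp7 second at 19.7 ± 1.52, with no overlap between their ranges of 22.7 to 25.9 and 18.0 to 21.3. Dusp5 kept its place after Dusp4 but came closer to it, with 6.79 ± 0.374 against 8.06 ± 0.297 CPM per kilobase. The other levels were 11.5 ± 1.38 for Dusp14, 9.77 ± 0.630 for Dusp8, 2.76 ± 0.361 for Dusp10, 2.33 ± 0.0957 for Dusp1, 1.54 ± 0.209 for Dusp16 and 0.181 ± 0.0510 for Dusp2. Overlapping neighbours were Dusp14 and Dusp8, and Dusp10 and Dusp1. When the longest transcript was used as the length, Dusp1 and Dusp16 exchanged places in homecage, Dusp1 and Dusp10 exchanged places in SOR, and the rest of the order stayed.

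**Figure D3:**
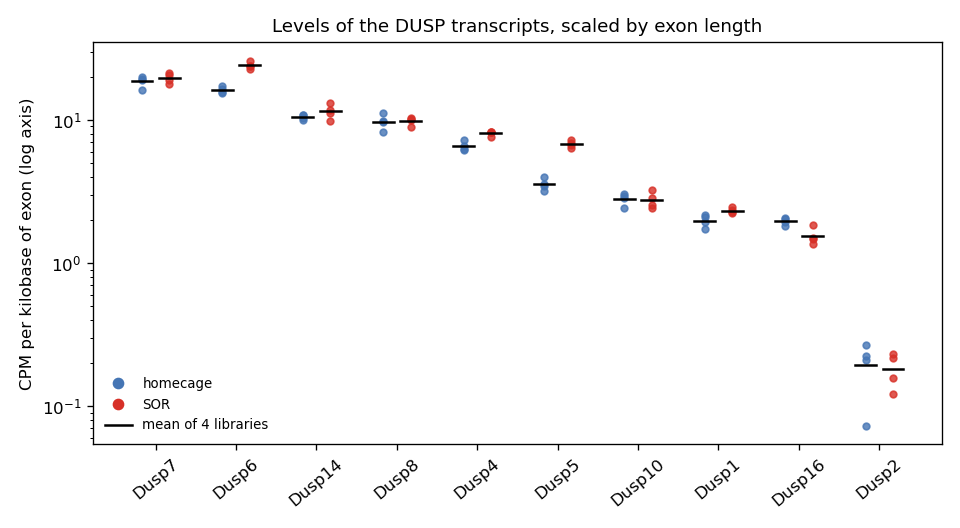
Level of each DUSP gene in CPM per kilobase of exon (vertical log axis) in homecage (blue) and SOR (red) libraries, ordered by the homecage mean. Points are libraries and bars are means of 4. Dusp6 moves from 16.1 to 24.0, past Dusp7, and Dusp2 lies below all other members in both groups.

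Summed over the 10 genes, the level was 72.0 ± 3.48 CPM per kilobase in homecage and 86.7 ± 4.21 in SOR (SD, n = 4 each). The ERK phosphatases accounted for most of this difference, with a sum of 38.3 ± 2.30 in homecage and 50.5 ± 2.90 in SOR. The sum of the broad nuclear phosphatases was 8.72 ± 0.558 and 10.6 ± 0.198, and that of the JNK and p38 phosphatases was 14.5 ± 1.03 and 14.1 ± 0.757 CPM per kilobase. As a share of the sum of the 10 genes, the ERK phosphatases made up 53.2% ± 0.850 in homecage and 58.3% ± 1.14 in SOR. The JNK and p38 phosphatases made up 20.1% ± 0.624 and 16.3% ± 0.431. The lowest SOR share of the ERK phosphatases (56.7%) was above the highest homecage share (54.1%). The shares were computed after the values were seen, sum to the whole in each library and carry no test.

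Ratios between members of the ERK group were also compared. None passed at an adjusted p of 0.05, a level that the test could hardly reach with these libraries. The ratio of Dusp5 to Dusp6 levels was 0.203, 0.234, 0.212 and 0.233 in homecage and 0.268, 0.280, 0.281 and 0.303 in SOR. The ratio of Dusp6 to Dusp7 was 0.972, 0.789, 0.822 and 0.904 in homecage and 1.27, 1.26, 1.25 and 1.12 in SOR, so that Dusp6 was below Dusp7 in every homecage library and above it in every SOR library. The mean ratio of Dusp5 to Dusp7 was 0.192 ± 0.0157 in homecage and 0.345 ± 0.00801 in SOR. The groups did not overlap for any of these ratios, nor for Dusp10 to Dusp16, at 1.44 ± 0.176 and 1.79 ± 0.0958. For these 4 pairs the exact two-sided permutation test gave p = 0.0286, the smallest the design allows. Their adjusted p was 0.0643 over the 9 pairs within groups that were compared. With 4 of 9 pairs at the smallest p, it could not be lower, so the lack of a pass decides nothing about these ratios. The other 5 pairs had permutation p between 0.0857 and 0.886. These ratios were added after the values were seen, and those of the ERK group use the same values as the calls of Dusp5 and Dusp6.

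**Figure D4:**
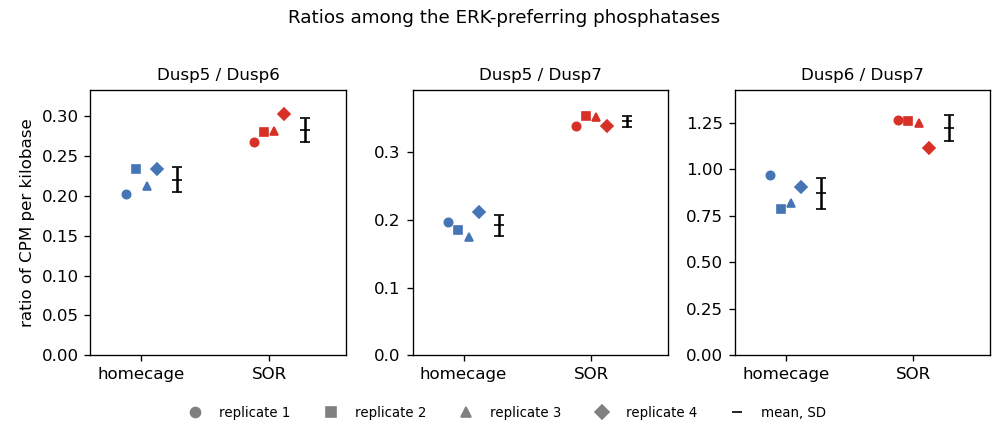
Ratio of the levels (CPM per kilobase) of each pair of ERK phosphatases in every library, with the group mean and SD in black and the vertical axes starting at 0. Blue is homecage and red is SOR, and symbols mark the replicate number. For each of the 3 ratios the SOR libraries lie above the homecage libraries, and the ratio of Dusp6 to Dusp7 passes from 0.872 to 1.22 on average.

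Genes with a pattern like that of the called members were sought among the 16351 genes tested that averaged 1 CPM or more. By Pearson correlation of log2 CPM over the 8 libraries, Dusp5 was most like Arc (r = 0.986), Snx17 (r = 0.986) and Dusp6 (r = 0.982). Dusp6 was most like Arc (r = 0.992), Mcl1 (r = 0.986) and Nfil3 (r = 0.986). Arc encodes a postsynaptic regulator of glutamate receptor trafficking and is a classic immediate early gene. Each correlation spans both groups and so includes the difference between them. Among the other members, Dusp4 had r = 0.917 with Dusp6 and Dusp1 had r = 0.812, while Dusp16 had r = −0.717.

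The rest of the phosphatase family and the kinases upstream gave no gene that passed the test. Of 17 other dual-specificity phosphatases, 15 were tested, 4 pointed higher and 11 lower, and the median log2 fold change was −0.11. The lowest was Dusp9 at −0.99 (SE 0.489, adjusted p = 0.537), named here after its value was seen. Its means were 0.279 CPM in homecage and 0.147 CPM in SOR. The 2 with the lowest p were Dusp26, a brain-enriched phosphatase, at −0.18 (adjusted p = 0.381), and Dusp3 at −0.11 (adjusted p = 0.453). In these 2 of the 15, the SOR libraries lay below all homecage libraries, against 3.96% of all genes. None of 8 other phosphatases that act on MAP kinases passed, with Ptprr at −0.11 (adjusted p = 0.67) and the striatum-enriched Ptpn5 at −0.15 (adjusted p = 0.673). Of the MAP kinases themselves, 9 of 10 were tested and none passed (median −0.02), and Mapk14 and Mapk11, which encode p38 kinases, had log2 fold changes of 0.11 and −0.12. None of 7 MAP kinase kinases passed, with Map2k3 at 0.29 (adjusted p = 0.506) and Map2k6 at −0.11 (adjusted p = 0.664). The 10 genes for Raf kinases, Ras and ERK scaffolds ran from −0.09 for Araf to 0.09, and none passed. The 12 kinases and scaffolds of the JNK and p38 pathways ran from −0.07 for Spag9 to 0.16 for Map3k13.

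Among 11 other feedback inhibitors of ERK signalling, 2 passed the test higher and none lower, beside 0.273% and 0.0363% of all genes. By log2 fold change 8 pointed higher and 3 lower, and the median was 0.05. All SOR libraries were above all homecage libraries for 4 of the 11, against 2.98% of all genes, and below them for 2, against 3.96%. These 2 were Rasa1 (log2 fold change −0.23, adjusted p = 0.199) and Spry2 (log2 fold change −0.15, adjusted p = 0.398), which are named here after their values were seen. Errfi1, which encodes an inhibitor of the EGF receptor, was at 40.4, 39.5, 41.2 and 40.3 CPM in homecage and at 67.1, 55.5, 54.6 and 60.4 CPM in SOR. Its log2 fold change of 0.56 (SE 0.0637, adjusted p = 0.00477) was close in size to that of Dusp6. Spred1, which encodes a membrane-bound inhibitor of Ras to Raf signalling, had a log2 fold change of 0.24 (SE 0.0401, adjusted p = 0.0386), below the fold change of a call. Spred1 passed in 1 of the 8 fits that left out a library, the one without SOR 4, and its adjusted p over these fits was between 0.0434 and 0.172. Of 10 kinases activated by ERK and ternary complex factors with their partners, none passed. Srf, which encodes the factor that binds the CArG box, had a log2 fold change of 0.19 (adjusted p = 0.277), and Rps6ka3, which encodes an ERK-activated ribosomal S6 kinase, had 0.22 (adjusted p = 0.225). For these 2 of the 10, all SOR libraries were above all homecage libraries, against 2.98% of all genes. Srf and Rps6ka3 both passed with DESeq2 (adjusted p = 0.0452 and 0.0187). Over all pathway lists, 15 genes passed higher and 1 lower with DESeq2. Of all 22018 genes, DESeq2 passed 322 higher and 120 lower, against 60 and 8 in the main fit.

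Of 14 immediate early genes, which neurons transcribe within minutes of activity, 8 passed the test higher and none lower. Over all genes, 0.273% passed higher and 0.0363% lower. By log2 fold change 12 of the 14 pointed higher and 2 lower, with a median of 0.92. The 2 were Npas4 (log2 fold change −0.49, adjusted p = 0.503) and Btg2 (log2 fold change −0.06, adjusted p = 0.89), named here after their values were seen. In order of size the 8 that passed were Egr2 at 2.75, Fos at 1.89, Fosb at 1.84, Arc at 1.42, Egr4 at 1.17, Nr4a1 at 1.12, Egr1 at 1.09 and Junb at 0.75. All of these 8 encode transcription factors except Arc. The log2 fold change of Dusp5 was thus above that of Junb and below that of Egr1, and that of Dusp6 was below all 8. The adjusted p was 0.0212 for both Egr1 and Egr4, and Egr1 passed in 2 (without SOR 1 and without SOR 3) and Egr4 in 3 (without homecage 3, SOR 1 or SOR 2) of the 8 fits without a library. Nr4a1 passed in 7, with an adjusted p of 0.0527 without homecage 2, and Dusp5 and Dusp6 passed in all 8. The genes in this list are known responders of these samples and others, so their direction is not independent evidence.

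The summed level of 6 choroid plexus markers was 25.6 to 1094 CPM in homecage and 42.0 to 3995 CPM in SOR, with the highest value in SOR 1. All 6 pointed higher in SOR and none passed the test. Without SOR 1, the log2 fold change of Dusp5 was 0.92 (adjusted p = 0.00297) and that of Dusp6 was 0.54 (adjusted p = 0.00129). Dusp4 had 0.29 (adjusted p = 0.2) and Dusp1 0.24 (adjusted p = 0.493) without it. The 6 markers of mature oligodendrocytes all pointed lower, with sums of 5278 to 5758 CPM in homecage and 4319 to 5672 CPM in SOR, with the lowest value in SOR 3. The 5 markers of red blood cells all pointed higher, with sums of 98.6 to 127 and 115 to 184 CPM and the highest value in SOR 4. All 5 dentate granule cell markers pointed lower, with sums of 331 to 392 and 298 to 371 CPM. The 6 pyramidal cell markers summed to 417 to 468 and 417 to 449 CPM, so the cells of the labelled tissue were present in every library. No gene in these lists, nor in those of inhibitory neurons, astrocytes, microglia, endothelial cells and thalamus, passed the test. The part of these cells in the values of the DUSP genes was not tested.

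The calls of Dusp5 and Dusp6 were compared over the settings of the analysis. Both were called in each of 12 other settings and in each of 8 fits without a library. The log2 fold change of Dusp5 was between 0.92 and 0.95 over the former and between 0.88 and 0.99 over the latter, and that of Dusp6 between 0.56 and 0.60 and between 0.54 and 0.60. Dusp16 stayed below 0 and Dusp1, Dusp4, Dusp7 and Dusp14 above 0 in all of these fits. For Dusp2, Dusp8 and Dusp10 the sign changed in at least 1 of them.

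**Figure D5:**
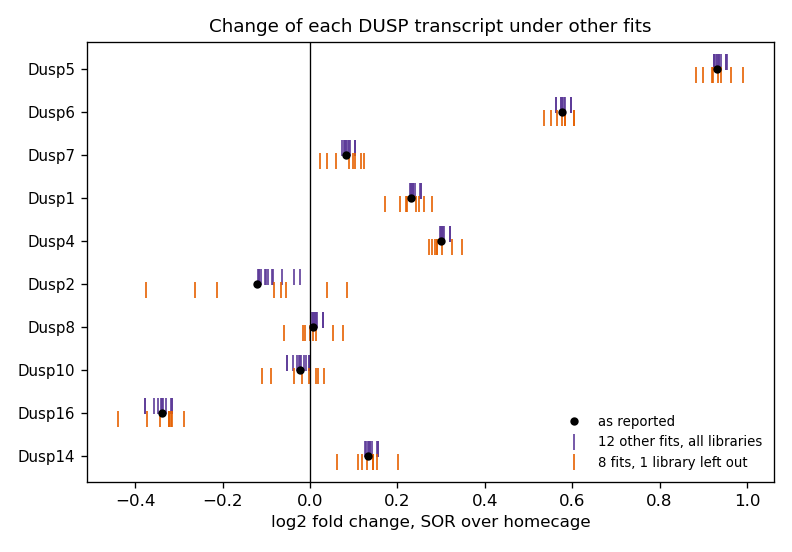
Log2 fold change of SOR over homecage (horizontal axis) for each DUSP gene as reported (black point), in 12 other fits of all libraries (purple marks) and in 8 fits with 1 library left out (orange marks). The marks of Dusp5 (0.88 to 0.99) and Dusp6 (0.54 to 0.60) stay far from 0, and those of Dusp2, Dusp8 and Dusp10 lie on both sides of it.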

How the data were processed

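Bulk RNA-seq of dorsal hippocampus was analysed in 4 homecage and 4 SOR mice, 1 library per mouse. The methods of the study name a kit for total RNA from which ribosomal RNA is removed, STAR and featureCounts, while the sample labels name polyA RNA, and the submitters' processing notes name mm10. The deposited values are estimated counts per gene that the authors summarized with tximport, and between 50.3% and 54.0% of the values in a library are not whole. The program that estimated them and the use of strand are not given in the sources used here. Spatial, single-nucleus and chromatin data were not used here.

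After rounding, the filterByExpr filter of edgeR 4.0.16 (R 4.3.3) kept 22018 genes. Upper-quartile factors were used for scaling, SOR was compared with homecage by the quasi-likelihood F test, and p was adjusted by the Benjamini-Hochberg method over all genes tested. Genes were called where the adjusted p was below 0.05 and the change exceeded 1.4-fold. Single genes were also compared by permuting the libraries over their log2 CPM (prior count of 2), exactly and two-sided. Intervals are 95% intervals from the fit. Positions and exon lengths came from GENCODE M21 (GRCm38), with a record for 54495 of 54532 genes. Promoter windows came from RefSeq for 27025 genes. The fit was tested on simulated data with 200 of 22018 genes changed by a log2 fold change of 1 in either direction, of which 88% were recovered with 6 false calls. The changed genes were drawn from those above 1 CPM. Smaller changes, such as those of every member including Dusp5 and Dusp6, were not simulated. Changes in genes below this level, such as Dusp2, were not simulated either.

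All 10 members are named, and of each pathway list every gene that passed the test or, where none passed, the 2 with the lowest p. For 1 gene that this rule takes, the result is not reported here. Genes of like pattern are the 3 with the highest r. The members, the pathway and marker lists and the tests were chosen with earlier results of these data known. Replicate numbers did not pair the libraries. The settings tried were scaling by TMM, by RLE or by library size alone, 2 other filters, the likelihood ratio test, DESeq2 1.42.0, limma-voom 3.58.1, 1 to 3 RUVs factors computed with an own implementation, the replicate block, no fold-change threshold, the longest transcript as gene length and each library left out. Ratios and shares were added after seeing the data.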

Additional observations from a re-analysis of the deposited data

Results flagged for a closer look

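The level of Dusp4 in SOR 3 was 20.9 CPM, the lowest of its group, while the other SOR libraries lay between 22.4 and 22.6 CPM. Its gap to the nearest of them was 0.886 of the range of the group. This was the only such value among 20 groups of 4 libraries that were examined for the 10 phosphatases, and chance gives about 1 in 20. SOR 3 was still above every homecage library.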

How the results depend on the processing

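Dusp5 and Dusp6 were the 2 members called in every setting tried. Over all genes, 38 were called (33 higher, 5 lower), 68 without the fold-change threshold (60 and 8), 105 with the likelihood ratio test (69 and 36) and 112 with DESeq2 (84 and 28). Fits without a library gave 22 to 38. The pathway lists held 10 genes that passed, 16 with DESeq2 (15 higher, 1 lower), and 6 to 9 in the fits without a library. By adjusted p alone, DESeq2 passed 442 of all genes (322 higher, 120 lower), against 68 in the main fit. The sign of the log2 fold change depended on the setting for 3 members with values near 0. Over the fits without a library, Dusp2 was between −0.38 and 0.084, Dusp8 between −0.061 and 0.076 and Dusp10 between −0.11 and 0.031, and with DESeq2 Dusp10 was at 0.000216. The median of the JNK and p38 phosphatases was between −0.11 and 0.0074 without a library. The causes were not tested. Libraries with the same replicate number did not deviate together (r from −0.084 to 0.073, against −0.200 to 0.194 for other pairs). With the replicate block, 30 genes were called over all genes and 2 members, and Egr1 and Spred1 no longer passed (adjusted p = 0.0591 and 0.135). Labels do not say whether litters or days differed. Dusp2 had at most 42.7 counts in a library, and counting error and spread between mice were not separated for it.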
